A study of Mus musculus with 18 samples.

Results

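The 8 genes described here, Phox2a, Hand2, Gata3, Th, Dbh, Chga, Chgb and Stmn2, mark the sympathoadrenal lineage, the neural crest derivatives that form sympathetic neurons and the chromaffin cells of the adrenal medulla. They were taken by symbol, and are 8 of the 21881 gene symbols counted. RNA was sequenced from cells sorted from the aorta-gonad-mesonephros (AGM) region of C57BL6 mouse embryos of stage E11, all of which carried BRE-GFP, a BMP signalling reporter whose green fluorescent protein is made under a BMP-responsive element. Cells positive for CD31 and negative for c-Kit were enriched for endothelium (EC), cells positive for both for hematopoietic progenitors and stem cells (HPSC), and cells negative for both for mesenchyme (MC). Each of these 3 populations came from fresh tissue, from explants grown in a culture containing BMP and Hedgehog, and from explants that also received cyclopamine, which blocks the Hedgehog transducer Smoothened. Each was divided by sorting into BRE-GFP positive and negative cells, so the 18 libraries are 18 combinations with 1 library each.

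The sympathetic ganglia form beside the dorsal aorta, where BMP from the vessel wall induces a network of transcription factors, among them Phox2a, Hand2 and Gata3, in the neural crest cells that gather there. These factors switch on the enzymes of noradrenaline synthesis, of which tyrosine hydroxylase (Th) performs the first and rate-limiting step and dopamine beta-hydroxylase (Dbh) the conversion of dopamine into noradrenaline. The amines are stored in dense-core granules with the chromogranins encoded by Chga and Chgb, while Stmn2 encodes a tubulin-binding protein of growing axons. The sort had no gate for neural crest cells, so these transcripts can reach any of the gates.

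Phox2a (chromosome 7, 101818313 to 101822726, plus strand) and Hand2 (chromosome 8, 57320983 to 57324633, plus strand) encode a paired-type homeodomain factor and a basic helix-loop-helix factor. Gata3 (chromosome 2, 9857078 to 9890034, minus strand) encodes a zinc finger factor that is also used by T cells and other tissues. Th lies at chromosome 7, 142892752 to 142931128 (minus strand), and Dbh at chromosome 2, 27165233 to 27183200 (plus strand). Chga lies at chromosome 12, 102554969 to 102565028, Chgb at chromosome 2, 132781278 to 132795079, and Stmn2 at chromosome 3, 8509360 to 8561606, each on the plus strand. These positions are those of the whole genes in GENCODE M21 on GRCm38, the assembly named mm10. Hand2 shares 3251 bases with the antisense gene Hand2os1, Gata3 overlaps 4930412O13Rik, Gm13256 and 9230102O04Rik, and Phox2a overlaps Inppl1 by 95 bases. The strand setting of the counting is not given in the sources used here, so reads of these 3 genes and of the genes that overlap them cannot be told apart.

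Promoter stretches of Th, Dbh and Chgb are shown, the first 2 because they moved together across the libraries and Chgb because its window held the same response element as that of Th. RefSeq promoter windows of GRCm38.p6, the 250 bases before the annotated start, were found for 7 of the 8 genes, all but Stmn2. Capitals mark the cyclic AMP response element (CRE) TGACGTCA and the homeodomain core ATTA or its reverse complement TAAT. The Th window is shown up to the annotated exon that begins within it (chr7:142900015-142900245, minus strand). It lies inside the GENCODE gene, which extends further upstream. The Dbh (chr2:27165343-27165370) and Chgb (chr2:132781560-132781587) windows lie within the first exon of the GENCODE models, so only 28 bases around motifs are shown, on the plus strand, with 2 of the 3 homeodomain cores of Dbh.
Th: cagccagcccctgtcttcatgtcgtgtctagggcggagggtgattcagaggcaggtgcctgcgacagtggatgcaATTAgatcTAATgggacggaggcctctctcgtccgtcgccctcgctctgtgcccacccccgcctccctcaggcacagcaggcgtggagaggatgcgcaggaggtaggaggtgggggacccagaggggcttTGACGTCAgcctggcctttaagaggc
Dbh: atgtgtcATTAgtgccaATTAggggaga
Chgb: ggctgctccgTGACGTCAgggctgagcg

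The CRE began 45 bases before the start of Th and 72 bases before that of Chgb, and 1.55% of the 32851 RefSeq windows of this length held it. None of the other 5 windows held these exact letters. The homeodomain core, the letters that homeodomain factors such as Phox2a recognise, stood 3 times before Dbh (157, 147 and 65 bases before the start), 2 times before Th, 5 times before Hand2 and 1 time before Chga, and 54.9% of all windows held it. An AP-1 motif, TGANTCA, stood before Th (6.75% of all windows). The other motifs searched on both strands were the E-box CANNTG (66.2% of all windows), AGATAA for GATA factors (9.99%), the TATA box TATAAA (12.4%) and the GC box GGGCGG (32.7%). The GATA letters stood before Hand2, and the TATA letters before none of the 7 genes. These matches describe letters and were not tested for binding.

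Counts assigned to genes ranged from 3041249 in HPSC cyclopamine negative to 21972063 in MC cyclopamine positive, and levels below are CPM, the count scaled to a common library total after TMM normalization. The library with the fewest detected genes of its population was EC cyclopamine negative (11006 genes), HPSC cyclopamine negative (10297) or MC fresh positive (12028). Calls that were lost without these 3 libraries are stated beside the results. Pecam1, the CD31 gene, reached at most 11.5 CPM in MC and was at least 93.7 CPM in EC and HPSC. Transcripts of 11 mesenchyme genes such as Pdgfra and Pdgfrb summed to 2767 to 7870 CPM in MC, to 1013 to 6913 CPM in EC and to 304 to 949 CPM in HPSC, so EC and MC overlapped in them. The labels do not say whether libraries came from separate embryos, so p-values measure only the spread between these libraries, part of which may be technical.

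**Figure D1:**
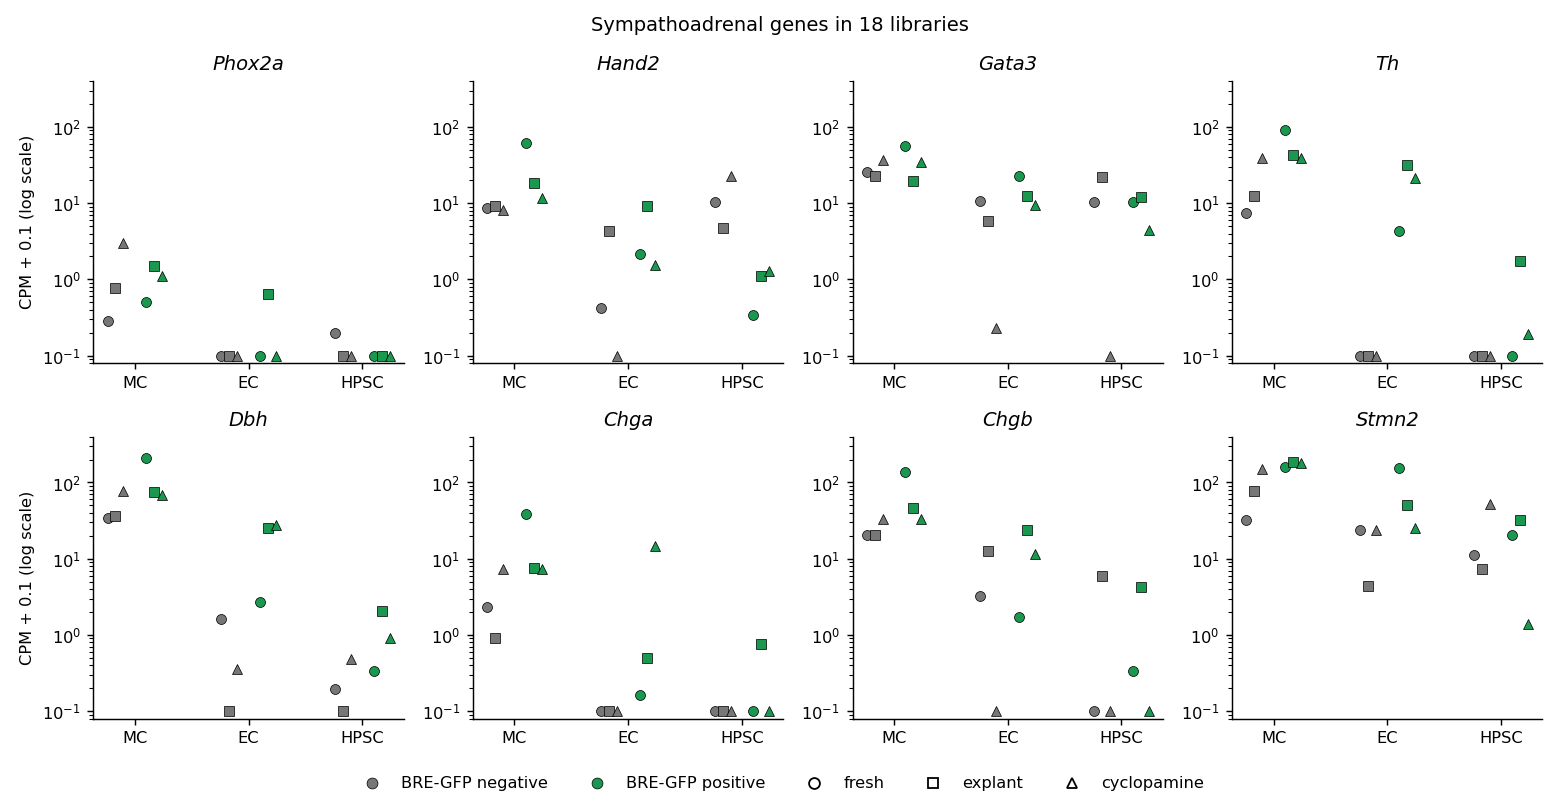
Level of each of the 8 genes in the 18 libraries, as CPM + 0.1 on a log axis, by population on the x axis, with BRE-GFP negative libraries (grey) on the left and positive ones (green) on the right of each population and the culture shown by marker shape. Dbh has no overlap between MC and the other populations, while Hand2 and Gata3 spread through all 3.

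All 8 genes averaged higher in MC than in EC and HPSC. Of the 3 transcription factors, Phox2a was the scarcest, at 0.185 to 2.92 CPM in the 6 MC libraries (median 0.837). It had counts in 1 of 6 EC libraries (EC explant positive, 0.538 CPM) and in 1 of 6 HPSC libraries (HPSC fresh negative, 0.0969 CPM, a single count). Phox2a thus had at most 50 counts in any library, and it entered the tests through 3 MC libraries alone.

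Hand2 ranged from 8.05 to 61.9 CPM in MC (median 10.3), from 0 to 9.14 CPM in EC (median 1.75) and from 0.239 to 22.6 CPM in HPSC (median 2.90). Its highest HPSC values exceeded those of Th and Dbh, and HPSC cyclopamine negative and HPSC fresh negative (10.4 CPM) lay above the MC median. Gata3 ranged from 19.7 to 55.9 CPM in MC (median 30.1), from 0.13 to 22.5 CPM in EC (median 10.1) and from 0 to 22.0 CPM in HPSC (median 10.3). For Gata3, 5 of the 6 MC libraries lay above every EC library and 5 of 6 above every HPSC library. Gata3 averaged 10.1 ± 7.44 CPM in EC and 9.79 ± 7.47 CPM in HPSC, a difference within the spread between libraries (edgeR adjusted p = 0.997).

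The enzyme genes had the clearest separation. Dbh ranged from 33.7 to 208 CPM in MC (median 72.6), from 0 to 27.8 CPM in EC (median 2.09) and from 0 to 1.94 CPM in HPSC (median 0.308). Every MC library lay above every EC and every HPSC library. Th ranged from 7.40 to 91.9 CPM in MC (median 39.1), from 0 to 31.3 CPM in EC (median 2.11) and from 0 to 1.67 CPM in HPSC, with 3 EC and 4 HPSC libraries at 0. Th in MC lay above all HPSC libraries but overlapped with EC, because EC explant positive and EC cyclopamine positive exceeded 2 MC libraries.

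The granule genes followed the same order. Chgb ranged from 20.2 to 139 CPM in MC (median 33.1), from 0 to 23.9 CPM in EC (median 7.27) and from 0 to 5.80 CPM in HPSC (median 0.12). Chga was lower, at 0.816 to 38.9 CPM in MC (median 7.26), with 3 EC and 5 HPSC libraries at 0 and a highest EC value of 14.6 CPM. Stmn2, the axonal gene, ranged from 32.1 to 185 CPM in MC (median 154), from 4.27 to 156 CPM in EC (median 24.7) and from 1.28 to 52.0 CPM in HPSC (median 15.6). It was the only one of the 8 genes with counts in all 18 libraries.

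Per kilobase of annotated exon, the mean level in MC was highest for Dbh, at 31.0 ± 23.8 CPM per kilobase (SD, n = 6). Stmn2 (23.3 ± 11.1), Chgb (17.8 ± 16.5) and Th (16.4 ± 12.7 CPM per kilobase) came next. Hand2 (8.32 ± 8.97), Gata3 (8.18 ± 3.32) and Chga (3.86 ± 5.14) were lower, and Phox2a reached 0.538 ± 0.486 CPM per kilobase. Neighbours in this order differed by less than the larger of their SDs over libraries. Phox2a, at 1.43 CPM per kilobase at most, stayed under every MC library of the other members except Chga.

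**Figure D2:**
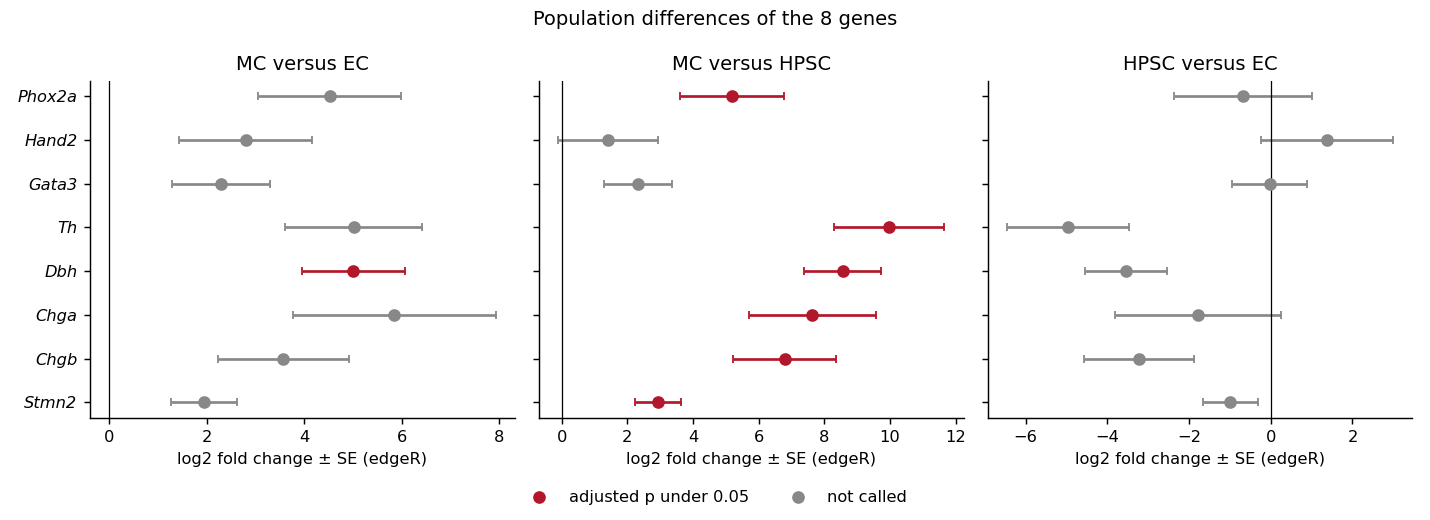
Log2 fold change between populations for each gene (points) with its SE (bars) from the edgeR fit over 18 libraries, in red where the adjusted p was under 0.05. All 8 points lie above 0 in both comparisons with MC; 1 is called against EC and 6 against HPSC.

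Each population comparison held the culture and the BRE-GFP fraction fixed, in 6 blocks. Against EC, 1 of the 8 genes passed at an adjusted p under 0.05, where 2.54% of the 16231 tested genes did so and 0.259% did so as higher and 2.29% as lower in MC. Dbh averaged 83.5 ± 64.2 CPM in MC and 9.58 ± 13.2 CPM in EC, higher in 6 of 6 blocks (log2 fold change 5.0 ± 1.05 (SE), edgeR adjusted p = 0.0128). This call was lost without MC fresh positive (0.0634), without MC explant negative (0.0508) and without the 3 libraries of fewest detected genes (0.0807), while Dbh stayed higher in each. Th averaged 38.7 ± 30.1 against 9.45 ± 13.5 CPM and did not pass (5.02 ± 1.41, edgeR adjusted p = 0.0769). The median log2 difference of the 8 genes was 4.04, against 0.20 for all tested genes, and 60.8% of all genes were higher in MC.

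Against HPSC, 6 of the 8 genes rose in MC, where 9.95% of all tested genes passed, 5.85% as higher and 4.1% as lower. Phox2a and Chga, 2 of the 6, had fewer than 3 libraries over the filter outside MC, so they were tested only because MC was high. Dbh was 144-fold and Th 132-fold higher as a ratio of means, on 42 and 26 summed HPSC counts. In the edgeR fit the log2 difference was 8.55 ± 1.17 for Dbh (adjusted p = 0.00018) and 9.98 ± 1.68 for Th (adjusted p = 0.00111). Chgb (6.79 ± 1.57, edgeR adjusted p = 0.0114) and Chga (7.63 ± 1.93, edgeR adjusted p = 0.0192) rose with them, as did Stmn2 (2.93 ± 0.69, edgeR adjusted p = 0.0132). Phox2a passed narrowly (5.20 ± 1.59, edgeR adjusted p = 0.0467), did not pass without the filter on low counts (0.084), and its call held in 5 of 18 fits that left out 1 library. Without the 3 libraries of fewest detected genes 4 genes passed, as Chga (edgeR adjusted p = 0.0729) and Phox2a (0.154) did not, and without MC explant negative 3 passed.

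Hand2 and Gata3 did not pass against HPSC. Hand2 averaged 19.6 ± 21.1 CPM in MC and 6.67 ± 8.67 CPM in HPSC, higher in 4 of 6 blocks (1.41 ± 1.53, edgeR adjusted p = 0.626). Gata3 averaged 32.5 ± 13.2 against 9.79 ± 7.47 CPM, higher in 6 of 6 blocks (2.32 ± 1.04, edgeR adjusted p = 0.173). The median of the 8 genes was 6.0, against 0.38 for all tested genes. Both comparisons use the same 6 MC libraries. With the percentage of reads outside annotated features (19.5 to 49.4% per library) as a covariate, only Th (edgeR adjusted p = 0.0315) and Dbh (0.0162) still passed. In bulk libraries, more cells of a type and more RNA per cell cannot be told apart.

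Between HPSC and EC no member passed, where 0.32% of all tested genes did, 0.283% as lower in HPSC. At an unadjusted p under 0.05, 3 of 8 genes did so (Dbh, Th and Chgb, all lower in HPSC) against 9.32% of all tested genes, and DESeq2 called Th and Dbh, with 4.9% of all tested genes, while limma-voom called none. The 3 BRE-GFP positive EC libraries, and no negative ones, exceeded every HPSC library in Th. In HPSC the highest Th, Dbh and Chga values all belonged to HPSC explant positive, at 1.67, 1.94 and 0.668 CPM.

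Other genes of the same pathways came from lists that also held the members, which are left out of the counts that follow. Of 8 tested sympathoadrenal transcription factors, 2 rose in MC against EC and 5 against HPSC, none fell, and their median log2 differences were 2.89 and 3.99. Sox11, a factor of immature neurons, averaged 2127 ± 1018 CPM in MC and 822 ± 317 CPM in EC (edgeR adjusted p = 0.0264). Against HPSC, where it averaged 465 ± 378 CPM, Sox11 also passed (edgeR adjusted p = 0.000341).

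The catecholamine list was split. Of its 12 tested genes only Slc6a2, the noradrenaline transporter that takes the amine back into the cell, passed in each comparison with MC, at 2.66 ± 2.13 CPM in MC, 0.0112 CPM in EC and 0.0334 CPM in HPSC (edgeR adjusted p = 0.0157 and 0.0121). Slc6a2 passed the filter on low counts through MC libraries alone. The vesicular transporter gene Slc18a2, which loads monoamines into granules, averaged 91.8 ± 38.9 CPM in MC, 84.3 ± 43.1 CPM in EC and 95.8 ± 54.7 CPM in HPSC, close in all 3. Slc18a1 averaged 11.1 ± 5.70 CPM in MC, below 28.3 ± 27.1 CPM in EC and 32.1 ± 25.7 CPM in HPSC, differences within the spread (edgeR adjusted p = 0.877 and 0.4661). Ddc, which encodes the decarboxylase between Th and Dbh in the pathway, averaged 34.6 ± 13.1, 15.7 ± 5.89 and 7.54 ± 6.31 CPM in MC, EC and HPSC and did not pass (edgeR adjusted p = 0.76 and 0.0947). Pnmt, the adrenaline-forming enzyme gene of chromaffin cells, reached at most 1.39 CPM in MC and stood at 0 in EC and HPSC.

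Of the 8 other tested granule genes, 1 rose in MC against EC (Scg5, 24.6 ± 20.05 against 1.15 CPM, edgeR adjusted p = 0.0391) and 4 against HPSC. Of the 12 early neuronal genes, 4 rose against EC (Tubb3, Nefl, Nefm and Elavl4) and 5 against HPSC. In the stathmin family, Stmn3 and Stmn4 passed against HPSC (edgeR adjusted p = 0.0375 and 0.00552) and not against EC, while Stmn1, which many dividing cells express, averaged 65.9, 37.5 and 47.5 CPM in MC, EC and HPSC and passed in neither. Of 10 tested receptor genes of sympathoblasts, none passed against EC and 3 rose against HPSC.

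**Figure D3:**
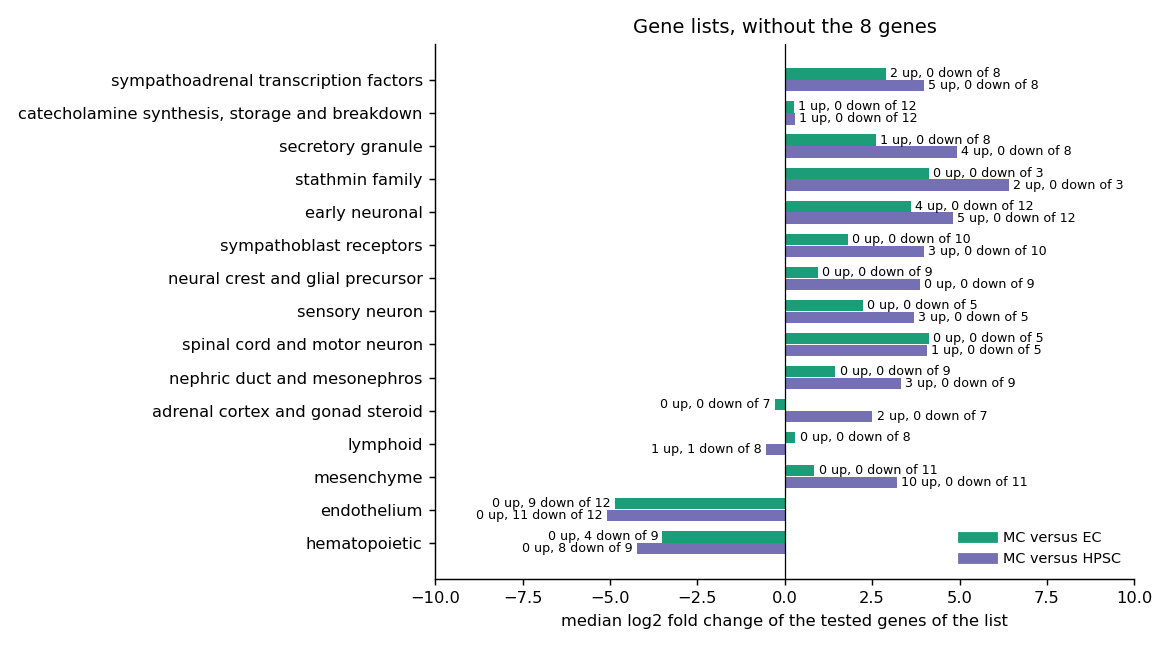
Median log2 fold change of the tested genes of each list, without the 8 genes, in MC against EC (green) and MC against HPSC (purple), with the number called higher and lower. Neuronal and sympathoadrenal lists lie above 0, the catecholamine list near 0, and endothelial and hematopoietic lists below.

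Markers of other cell types that could carry the same transcripts were also read. Of the 10 spinal cord and motor neuron genes, Olig2, Lhx3 and Lbx1, named here for their values, stood at 0 in all MC libraries. The list summed to 5.37 to 16.3 CPM in MC, 0.566 to 7.44 CPM in EC and 0 to 3.54 CPM in HPSC. None of its genes was called against EC, and Slc5a7 rose in MC against HPSC (edgeR adjusted p = 0.024). The 8 sensory neuron genes summed to 57.9 to 134 CPM in MC, 0.39 to 50.5 CPM in EC and 12.8 to 57.1 CPM in HPSC. Every MC library thus lay above every EC and HPSC library in this sum. Of its 5 tested genes, 0 were called against EC and 3 rose against HPSC. The 10 neural crest and glial genes summed to 189 to 468 CPM in MC, 319 to 786 CPM in EC and 115 to 1242 CPM in HPSC. None of 9 tested genes passed in either comparison. Per kilobase, Ednrb was the highest of this list, at 46.3 CPM in MC, 96.2 CPM in EC and 109 CPM in HPSC. Sox10 had the opposite order, at 3.39 ± 2.81, 1.41 ± 1.21 and 0.537 ± 1.22 CPM in MC, EC and HPSC. The 7 adrenal cortex and gonad steroid genes summed to 43.7 to 137 CPM in MC and to 32.1 to 348 CPM in EC, with none called against EC. Against HPSC, at 15.0 to 83.3 CPM, Mc2r and Nr5a1 rose in MC (edgeR adjusted p = 0.00843 and 0.0302). The 11 nephric duct and mesonephros genes summed to 130 to 273 CPM in MC, 46.8 to 247 CPM in EC and 21.5 to 145 CPM in HPSC. None of these was called against EC, and Wt1, Wnt9b and Cdh16 rose in MC against HPSC. The part of these cell types in the levels of the 8 genes was not tested.

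BRE-GFP positive and negative cells were compared in 9 pairs of the same population and culture, which asks whether BMP-responding cells hold more of these transcripts. No member passed over the 9 pairs, where 0.0554% of all tested genes did, 0.0493% as lower in positive cells. At an unadjusted p under 0.05, 3 of the 8 genes did so (Th, Dbh and Chga, all higher in BRE-GFP positive cells) against 5.30% of all tested genes. DESeq2 called Th (adjusted p = 0.00544) and Dbh (0.0275), with 2.29% of all tested genes, and limma-voom called none.

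**Figure D4:**
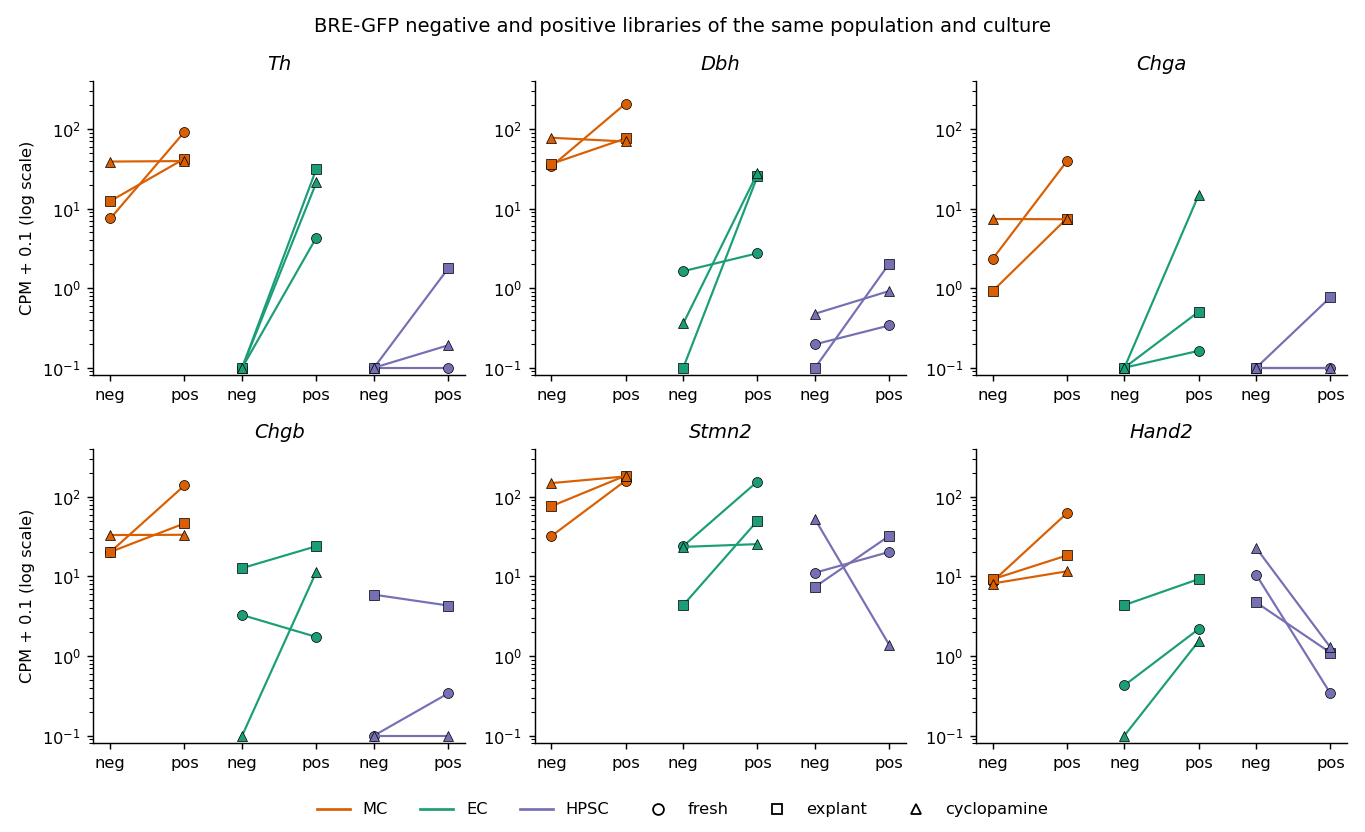
Levels of 6 of the genes in BRE-GFP negative (neg) and positive (pos) libraries, as CPM + 0.1 on a log axis, with lines joining the libraries of 1 population and culture. Th starts from 0 in every EC and HPSC negative library, and Hand2 runs upwards in MC and EC and downwards in HPSC.

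In EC the positive library was the higher one in 21 of 24 gene and culture pairs, lower in 1 and tied in 2. Of all tested genes, 47.1% were higher in the positive library of fresh, 56.8% in that of explant and 53.9% in that of cyclopamine EC. Th had 0 counts in all 3 negative EC libraries, which allows up to 0.328 CPM in fresh, 0.533 CPM in explant and 0.39 CPM in cyclopamine tissue for counting error only (a limit of 3 counts). In the positive EC libraries Th stood at 4.21 CPM in fresh tissue, 31.3 CPM in explants and 21.2 CPM with cyclopamine. The groups did not overlap, and against these limits the positive library was at least 12.8-fold, 58.8-fold and 54.2-fold higher. Dbh went from 1.53 to 2.64 CPM in fresh EC, from 0 to 25.3 CPM in explant EC and from 0.26 to 27.8 CPM in cyclopamine EC. The Dbh difference was thus small in fresh tissue and large in both cultures.

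Chga in EC had 0 counts in the 3 negative libraries and 0.0629, 0.403 and 14.6 CPM in fresh, explant and cyclopamine positive ones, so that its positive mean rested on 1 library. Chgb was higher in 2 of 3 pairs, and Stmn2, Hand2 and Gata3 in 3 of 3. Stmn2 went from 24.0 to 156 CPM in fresh, from 4.27 to 50.0 CPM in explant and from 23.4 to 25.4 CPM in cyclopamine EC. None of the 8 genes passed in the EC test, where 0.0123% of all genes did. The log2 difference of Th was 10.59 ± 2.12 (edgeR adjusted p = 0.864) and that of Dbh 5.37 ± 1.89 (edgeR adjusted p = 1). Dbh, Th and Chga had an unadjusted p under 0.05 against 4.29% of all tested genes, and DESeq2 called Th (adjusted p = 3.34e-05) and Dbh (0.00174), with 2.62% of all tested genes.

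Other marker lists did not all go the same way between the EC fractions. The 12 early neuronal genes summed to 143, 285 and 169 CPM in the fresh, explant and cyclopamine positive EC libraries and to 32.8, 149 and 131 CPM in the negative ones. The mesenchyme genes summed to 1495, 4419 and 6913 CPM in the positive and to 1013, 4144 and 4382 CPM in the negative libraries, higher in the positive library of each culture. The 12 endothelial genes were also higher in each positive library, at 8338, 4887 and 1606 against 526, 977 and 1271 CPM. Their sum was highest in fresh positive EC, where Th and Dbh were lowest among the positive libraries. The 8 other sympathoadrenal transcription factors summed to 1482, 568 and 647 CPM in the positive and 852, 867 and 985 CPM in the negative libraries. The 10 other granule genes summed to 79.7, 300 and 549 against 59.9, 311 and 112 CPM. The part of these in the Th and Dbh levels was not tested.

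In MC the positive library was higher in 19 of 24 pairs and lower in 5, and no member passed the MC test, where 0% of all tested genes did. No member had an unadjusted p under 0.05 there, and DESeq2 and limma-voom also called none. The ratios differed in size between the single pairs of each culture. In fresh MC, all 8 genes were higher in the positive library, against 36.5% of all tested genes, and the ratio ran from 2.17 for Gata3 to 12.4 for Th and 17.5 for Chga among the 7 genes other than Phox2a, which had 3 counts or fewer in each library. In explant MC, 7 of 8 were higher, against 50.9% of all genes, with ratios of 3.43 for Th, 2.09 for Dbh and 9.04 for Chga and 0.862 for Gata3.

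With cyclopamine, 4 of 8 genes were higher in MC and 4 lower, against 50.4% of all genes. The positive and negative levels were 39.4 and 38.8 CPM for Th, 69.5 and 77.4 CPM for Dbh, 7.23 and 7.29 CPM for Chga and 33.3 and 33.0 CPM for Chgb. These 4 genes thus stood at nearly equal levels in the 2 fractions. The fresh ratios rest on MC fresh positive, the MC library with the fewest counts and detected genes, and 1 library per combination allows no test of whether the BRE-GFP difference varies with culture. The mesenchyme sum was also higher in the positive MC libraries (6256 to 7870 against 2767 to 5207 CPM), as was the early neuronal sum in each culture (548 to 1254 against 222 to 603 CPM). The sum of 8 other sympathoadrenal transcription factors, Sox11 among them, was lower in the positive MC library of each culture, at 1800.4 against 4163 CPM in fresh, 1567 against 3180 CPM in explant and 1776 against 2125 CPM in cyclopamine tissue. Their part in the MC differences was not tested.

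In HPSC, 11 pairs were higher in the positive library, 7 lower and 6 tied, while 38.9%, 53.4% and 50.4% of all tested genes were higher in the fresh, explant and cyclopamine pairs. No member passed, where 0.037% of all genes did. Th had 0 counts in the 3 negative HPSC libraries and 0, 1 and 25 counts in the fresh, cyclopamine and explant positive ones. Hand2 went the other way, from 10.4 CPM in fresh negative to 0.239 CPM in fresh positive HPSC, from 4.61 to 1.0 CPM in explants and from 22.6 to 1.18 CPM with cyclopamine. The 3 negative libraries lay above the 3 positive ones. The edgeR log2 difference of Hand2 in HPSC was -3.91 ± 1.54 (adjusted p = 0.582), and DESeq2 called it (adjusted p = 0.00332), with 5.72% of all tested genes. Th had the other unadjusted p under 0.05 of the 8 genes in HPSC, limma-voom called none, and 7.60% of all tested genes were under that limit.

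The BRE-GFP effect on Hand2 was tested between populations. In MC, Hand2 averaged 30.5 ± 27.4 CPM in positive and 8.56 ± 0.54 CPM in negative libraries (n = 3 each), higher in 3 of 3 pairs, and in HPSC 0.809 ± 0.50 and 12.5 ± 9.20 CPM, lower in 3 of 3. The effect in MC exceeded that in HPSC by 5.34 ± 2.05 on the log2 scale (edgeR adjusted p = 0.972), and DESeq2 gave an adjusted p of 0.0142 and called 0.961% of all tested genes. The effect on Th was smaller in MC than in EC by 8.79 ± 2.48 on the log2 scale (edgeR adjusted p = 1), and its size depends on the 0 counts of the negative EC libraries. No member passed in either test of a difference between populations with edgeR, where 0% of all genes did.

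Culture comparisons held population and fraction fixed, in 6 blocks. No member passed for explant against fresh, where 0.136% of all genes did, for cyclopamine against explant, where 0% did, or for cyclopamine against fresh, where 0.129% did. At an unadjusted p under 0.05 the counts were 0, 1 and 0 of the 8 genes, and DESeq2 and limma-voom called none in these 3 comparisons. The 1 gene was Chgb, lower with cyclopamine than in explants by 3.13 ± 1.39 on the log2 scale (edgeR adjusted p = 0.564). Chgb with cyclopamine stood at 0 CPM in EC negative and both HPSC libraries, against 12.6, 5.80 and 4.21 CPM in the matching explant libraries. Among these, EC and HPSC cyclopamine negative had the fewest detected genes of their populations. A limit of 3 counts is 1.13 CPM in HPSC cyclopamine negative. In EC positive, Chgb stood at 11.4 CPM with cyclopamine and 23.9 CPM in explants. In the 2 MC blocks it stood at 33.0 and 33.3 CPM with cyclopamine and 20.2 and 46.3 CPM in explants.

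Within populations, no member passed in any of the 7 culture comparisons tested with edgeR, where 0.00616% of all tested genes did for explant against fresh in EC and 0% in the other 6. There limma-voom called none and DESeq2 only Chgb in HPSC for cyclopamine against explant (adjusted p = 0.0315), with 2.48% of all tested genes. An unadjusted p under 0.05 was given by edgeR for Hand2 in EC and for Chgb in HPSC for cyclopamine against explant, and for Chgb in HPSC for explant against fresh. Hand2 in EC stood at 0.328 and 2.08 CPM in fresh, at 4.27 and 9.14 CPM in explant and at 0 and 1.43 CPM in cyclopamine libraries (negative first). Explant EC thus had more Hand2 than fresh and cyclopamine EC in both fractions.

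In MC, cyclopamine and explant libraries differed more in the negative than in the positive fraction, with a median log2 difference over the 8 genes of 1.02 and -0.11. In negative MC, 7 of 8 genes were higher with cyclopamine than in explants, against 46.6% of all tested genes, and the exception was Hand2. Th in negative MC stood at 7.40 CPM in fresh, 12.3 CPM in explant and 38.8 CPM in cyclopamine tissue, and Stmn2 at 32.1, 76.2 and 149 CPM. In positive MC, 7 of 8 genes were lower with cyclopamine than in explants, while 46.0% of all tested genes were higher, and the exception was Gata3. Th in positive MC stood at 91.9, 42.2 and 39.4 CPM in fresh, explant and cyclopamine tissue. With 1 library each, these orders have no replicate check, and no test passed.

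**Figure D5:**
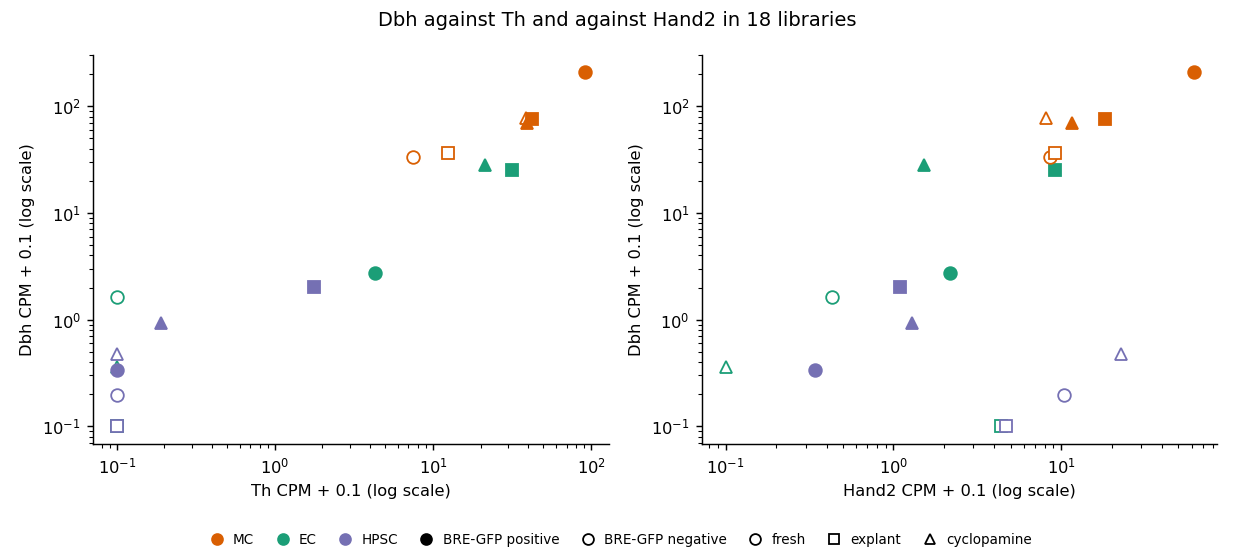
Dbh against Th (left) and against Hand2 (right) in the 18 libraries, as CPM + 0.1 on log axes, with population by colour, culture by marker shape and BRE-GFP positive libraries filled. Dbh rises with Th through all populations, while 3 HPSC libraries combine high Hand2 with little Dbh.

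The 8 genes varied together to different degrees across libraries, as a description over 18 libraries that share populations and cultures. Pearson's r of log2 CPM was 0.963 between Th and Dbh over all 18 libraries, 0.947 over the 6 MC libraries and 0.925 over the 12 others. Over the 28 gene pairs r ran from 0.326 (Gata3 and Stmn2) to 0.963, with a median of 0.639. Hand2 and Dbh had an r of 0.869 over the 6 MC libraries and of -0.000735 over the 12 EC and HPSC libraries. Th and Dbh thus varied together in MC and across the other libraries, while Hand2 followed Dbh within MC and not across the EC and HPSC libraries, a contrast that was not tested. Depth, BRE-GFP fraction and MC fresh positive are shared by these points.

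Of 9937 tested genes with a mean of at least 10 CPM, those most like each member over the 18 libraries were ranked by r. For Dbh these were Rgs4 (0.928), Nefm (0.909), Csdc2 (0.902), Egfl6 (0.901) and Scn3b (0.894), and for Th they included Csdc2 (0.936), Cyp7b1 (0.912), Scn3b (0.885) and Serpinf1 (0.884). Chga was closest to Csdc2 (0.874), Nefm (0.873), Dap (0.835), Acta1 (0.827) and Tgfb2 (0.82). Csdc2 and Nefm thus recurred beside the enzyme and granule genes. Chgb was closest to Tnnc1 (0.965), Abi3bp (0.929), Mybpc1 (0.923), Cyb561 (0.916) and Tram1l1 (0.912). Cyb561 encodes a cytochrome of granule membranes that supplies electrons for Dbh.

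Of the transcription factors, Phox2a had 1 neighbour, Rgs4, in common with Dbh. Phox2a was closest to Tubb3 (0.772), Ncan (0.766), Nicn1 (0.762), Rgs4 (0.759) and Igsf3 (0.754). Hand2 was closest to Ube2b (0.925), Adamts17 (0.846), Bdh2 (0.84), Actg2 (0.831) and Slc38a5 (0.823), none of which is a neighbour of another member. Gata3 was closest to Gorab (0.945), Rgs12 (0.944), Fbxo11 (0.941), Txnrd2 (0.936) and Them4 (0.936). Stmn2 was closest to Glt8d1 (0.786), Nprl2 (0.774), Nefm (0.763), Mex3b (0.762) and Kdelc1 (0.76). Of the 10 names listed for Hand2 and Gata3, none recurred beside another member.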

How the data were processed

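RNA was extracted with mirVana and made into SMARTER libraries for Illumina sequencing, per the labels' protocols. The authors deposited whole-number counts per gene symbol, 1 file per library. TopHat, Cufflinks, HTSeq and the build mm10 are named in the submitters' processing notes. With tool versions, gene models and strand option not given in the sources used here, how reads of overlapping genes were assigned is unknown.

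Reads at no annotated feature (19.5 to 49.4% per library) were left out. Genes were kept at 0.796 CPM, which is 10 counts at the median library, in at least 3 libraries, leaving 16231 of 21881, among them all 8 genes described. Counts were tested with edgeR 4.0.16 (TMM scaling, quasi-likelihood F test, default prior count, Benjamini-Hochberg adjusted p under 0.05) in R 4.3.3, on all 18 libraries. Population tests held culture and fraction as 6 blocks, BRE-GFP tests population and culture as 9 pairs, and culture tests population and fraction as 6 blocks. With 1 library per combination, the spread comes from the residuals of these models, and p-values assume that effects add up. Correlations used log2 CPM computed from the deposited counts with a prior count of 2. The procedure was tested on simulated data. DESeq2 1.42.0, limma 3.58.1 (voom), other scalings and filters, a covariate, designs without blocks and fits without single libraries were alternatives.

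Named genes were the 8 members, up to 6 genes per list with the lowest p past the threshold in MC against EC, named relatives, and the 5 genes of highest r per member. In lists of other cell types, genes called against HPSC or at 0 in MC were also named, and Ednrb and Sox10 by level. Some genes that this rule covers are not reported here. Promoter letters came from RefSeq (GRCm38.p6), positions and exon lengths from GENCODE M21. Members and lists were chosen with earlier results of these data known. A count of 0 was given a limit of 3 counts, for counting error only.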

Additional observations from a re-analysis of the deposited data

Results flagged for a closer look

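In 24 sets, each the 6 libraries of 1 population for 1 gene, 10 held a library that stood far above the other 5 by Dixon's criterion. The criterion flags about 1 in 20 groups of normally distributed values. That rate does not hold for CPM with many 0 counts. A set with 5 libraries at 0 is always flagged, as were Phox2a in EC and HPSC and Chga in HPSC, and the sets share libraries. The library MC fresh positive accounted for 4 of them, with 61.9 CPM of Hand2, 208 CPM of Dbh, 38.9 CPM of Chga and 139 CPM of Chgb, where the next MC libraries reached 18.2, 77.4, 7.37 and 46.3 CPM. HPSC explant positive stood apart for Th (1.67 CPM, 25 counts) and for Chga (0.668 CPM, 10 counts). In EC, the libraries standing apart were explant positive for Phox2a (0.538 CPM, 8 counts), cyclopamine positive for Chga (14.6 CPM, 194 counts) and fresh positive for Stmn2 (156 CPM). HPSC fresh negative stood apart for Phox2a at 0.0969 CPM, which is 1 count.

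Hand2 was higher in the BRE-GFP positive library of all 3 MC pairs and lower in that of all 3 HPSC pairs. The difference between these effects was 5.34 ± 2.05 on the log2 scale (edgeR adjusted p = 0.972). Hand2 was also higher in the positive library of all 3 EC pairs, with means of 4.22 CPM in positive and 1.53 CPM in negative EC libraries, against 0.809 and 12.5 CPM in HPSC. This second difference, between EC and HPSC, was not tested.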

How the results depend on the processing

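For MC against EC, 1 gene passed, with 6 by DESeq2, 4 by limma-voom, 0 without blocks, 0 without EC cyclopamine negative, HPSC cyclopamine negative and MC fresh positive together, and 0 to 3 when 1 library was left out. It was 0 without MC fresh positive and without MC explant negative, 2 without MC explant positive and 3 without EC cyclopamine positive. Over all genes the count was 413, with 1246 by DESeq2 and 781 by limma-voom and 259 to 492 with 1 library left out. For MC against HPSC, 6 genes passed, with 2 when the share of reads at no feature was a covariate and 3 to 6 with 1 library left out, the 3 without MC explant negative. Over all genes it was 1615, with 3579 by DESeq2, 2872 by limma-voom and 518 with that covariate, and 903 to 1891 with 1 library left out.

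Where edgeR called none, DESeq2 called 2 genes for HPSC against EC, 2 for BRE-GFP over all pairs, 2 for BRE-GFP in EC, 1 for BRE-GFP in HPSC, 1 for cyclopamine against explant in HPSC and 1 for the BRE-GFP effect in MC minus HPSC. In the same order, DESeq2 called 4.9%, 2.29%, 2.62%, 5.72%, 2.48% and 0.961% of all tested genes. The causes were not tested. All 8 genes kept their sign in MC against EC and against HPSC in the 18 fits that left out 1 library. In the other comparisons, 72 of 136 differences, none called by edgeR, changed sign in at least 1 of these fits. Leaving out these 3 libraries, each with the fewest detected genes in its population, was chosen after seeing the data. No paired analysis was possible because the labels carry no replicate numbers and each combination has 1 library, and the blocks and pairs of the tests are shared conditions. Low counts limit Phox2a throughout and Th, Dbh and Chga in HPSC.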
